A study of Saccharomyces cerevisiae with 1 sample.

Results

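The 25S rRNA of the yeast large ribosomal subunit carries 30 known pseudouridines, and their behaviour was followed in the untagged control library of a CRAC experiment. The positions were taken from a fixed list of known sites and kept where the deposited pileup gives the base as T, which all 30 did. They are 30 of the 869 U nucleotides (T in the files) among the 3396 nucleotides of this rRNA, and the other 839 served as comparison. In CRAC, cells are irradiated with UV light to join proteins covalently to the RNA they contact, a tagged protein is purified, and the RNA fragments that remain attached are sequenced. The 1 library analysed here comes from BY4742, a laboratory strain of Saccharomyces cerevisiae with no tagged protein, grown in YMM medium without tryptophan but with glucose to an OD of 0.6. The RNA fragments it holds were recovered in the absence of any bait, and the library was amplified by 16 PCR cycles. The library of the tagged helicase Dbp6 was not used here. With 1 library and no replicate, the values carry no standard deviation and no p-value, and every comparison below is a description.

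A pseudouridine is a uridine whose base is joined to the ribose through a carbon instead of a nitrogen atom. It pairs with adenine as uridine does, and the rotated base exposes an additional hydrogen bond donor. In yeast rRNA, most pseudouridines are made by box H/ACA snoRNPs, in which a guide snoRNA pairs with the sequence on both sides of the target and the enzyme Cbf5 isomerises the uridine. The sites gather in functional centres of the ribosome, such as the peptidyl transferase centre, where peptide bonds form, and helix 69, which reaches across to the small subunit. Reverse transcriptase usually reads through a pseudouridine unless it has been chemically treated, and the protocol of this library has no such treatment. Modification itself was therefore not measured. The pileup gives, for each nucleotide, the reads that cover it (hits) and how many of them carry a substitution or a deletion there, both per 100000 reads.

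The following stretches of the 25S rRNA are shown because the results turn on them. They hold the pseudouridines with the highest share of changed hits, the strongly changed neighbours, or the extremes of coverage. They were read from the deposited pileup, 5′ to 3′, with the pseudouridines in capitals and T for U. Positions in brackets are those of RDN25-1, which lies on the minus strand of chromosome XII from 451786 to 455181 in the R64 build. They were counted from the gene bounds that RefSeq gives, which span the same 3396 nucleotides as the pileup, and the genome sequence was not used. All of them lie in the mature, non-coding rRNA.
U776 (chrXII:454396-454416): ttcggatggaTttgagtaaga
U960 and U966 (chrXII:454206-454232): gaagtttcccTcaggaTagcagaagct
U1042, U1052 and U1056 (chrXII:454116-454150): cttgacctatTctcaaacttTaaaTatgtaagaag
U1110 (chrXII:454062-454082): tgaagagcttTtagtgggcca
U2191 (chrXII:452981-453001): caatgtgattTctgcccagtg
U2258, U2260, U2264 and U2266 of helix 69 (chrXII:452906-452934): cgggagtaacTaTgacTcTcttaaggtag
U2314 (chrXII:452858-452878): cgcgcatgaaTggattaacga
U2735 (chrXII:452437-452457): tcagtgtgaaTacaaaccatg
U2865 (chrXII:452307-452327): tgctttttgaTtcttcgatgt
U2880 (chrXII:452292-452312): cgatgtcggcTcttcctatca
U2975 (chrXII:452197-452217): tgagacaggtTagttttaccc

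The pseudouridines were not set apart from other U nucleotides by their coverage. Hits ranged from 12 to 11830 over the 30 sites, with a median of 146 and quartiles of 69 and 341.8. The other 839 U nucleotides had a median of 180 hits, with quartiles of 71 and 627. At least 100 hits were reached by 20 of the 30 pseudouridines (66.7%) and by 569 of the other U nucleotides (67.8%). The means differed more, at 643 and 1778 hits, and the highest peak of the 25S rRNA, whose summit is at nucleotide 2551, holds no pseudouridine within 75 nucleotides. The second highest peak, with its summit at nucleotide 2178, holds 3 within that distance.

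**Figure D1:**
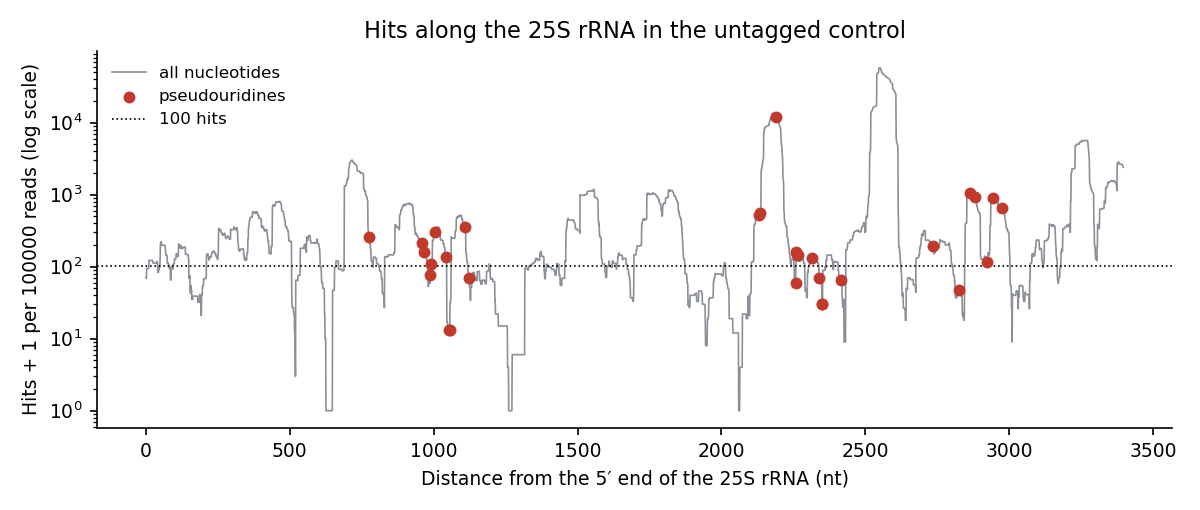
Hits per 100000 reads (plus 1, log scale) against the distance from the 5′ end of the 25S rRNA, for all nucleotides (line) and the 30 pseudouridines (points). The points run from 12 hits at U1052 and U1056 to 11830 at U2191, and 20 of them lie at or above 100 hits (dotted line).

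The most covered pseudouridine was U2191, the target of SNR32 in domain IV, with 11830 hits. This was more than at 96.3% of the other U nucleotides. U2865, guided by SNR46, and U2880, guided by SNR34, followed with 1065 and 916 hits, and both belong to the peptidyl transferase centre region of domain V. The fewest hits were at U1052 and U1056 in domain II, with 12 each, and at U2349 and U2351 in domain IV, with 29 each. SNR81 guides U1052, SNR44 guides U1056, and SNR82 guides U2349 and U2351. The minimum of 100 hits, which a share of changed hits was required to rest on, fell between U990 with 107 hits and U986 with 75.

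Coverage also varied by domain. The 11 pseudouridines of domain II had a median of 137 hits, beside 119 at the 179 other U nucleotides of that domain. In domain IV, 11 pseudouridines had a median of 146 hits and the 112 other U nucleotides one of 66.5. The 8 pseudouridines of domain V had a median of 422, beside 288 at 163 other U nucleotides. Within each of these domains the median of the pseudouridines was the higher one, whereas over the whole 25S rRNA it was the lower. Domains I, III and VI hold none of the listed sites.

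Relative to their surroundings, the pseudouridines showed no common dip or peak. The hits at a pseudouridine, divided by the mean over 10 nucleotides on either side, had a median of 0.995 and ran from 0.135 at U1056 to 1.34 at U2260. The median at 829 other U nucleotides was 0.988, with quartiles of 0.796 and 1.06, and the quartiles of the pseudouridines were 0.750 and 1.07. The low value at U1056 reflected a gap in coverage that also held U1052. Hits fell from 118 to 16 after nucleotide 1045 and rose from 38 to 258 after nucleotide 1060, so that U1042, with 137 hits, stood just before the gap.

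Hits changed in steps, as many fragments began or ended at the same nucleotide. Among the 20 steps between neighbouring nucleotides in the window around a pseudouridine, hits changed at a median of 8, and the median was 8 for the other U nucleotides too. At 15 of the 30 pseudouridines (50%) the next nucleotide had exactly the same hits, as it did at 45.7% of the other U nucleotides. A rise by at least 10% of the hits of the next nucleotide, as a shared 5′ end of fragments would give, was seen at 3 of the 30. Over all 859 U nucleotides compared it was seen at 11.9%, so the share was close to the background. These sites were U1056 (12 hits, then 31), U2258 (59, then 157) and U2351 (29, then 88). This measure was added after the values had been seen. Whether fragments that share an end are amplified copies of few molecules was not tested.

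Few hits were changed at the pseudouridines. Of the 20 with at least 100 hits, 3 carried a substitution or deletion in at least 1% of their hits, a level reached by 25.3% of all 589 U nucleotides of that coverage and by 146 of the 569 others (25.7%). The median share of changed hits was 0.399% at the pseudouridines and 0.405% at the others, so the medians lay close together. The upper ranges lay further apart, although a maximum over 569 sites is drawn from many more nucleotides than one over 20. The upper quartile was 0.696% at these 20 pseudouridines and 1.03% at the other U nucleotides, and the highest shares were 2.74% and 71.5%. None of the 20 was changed in 5% of hits, a level that 8.49% of all U nucleotides with at least 100 hits reached. No change at all was found at 7 of the 20 (35%), beside 28% of all U nucleotides of that coverage. With 100 hits a single change already amounts to 1%, so shares at the less covered sites move in coarse steps.

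**Figure D2:**
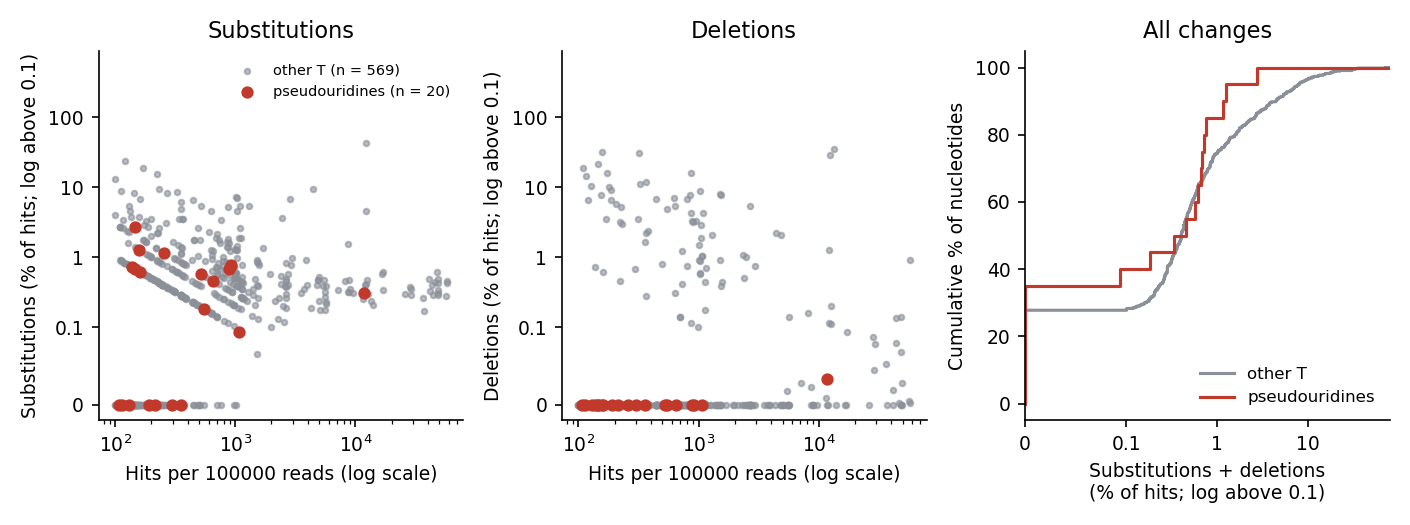
Substitutions (left) and deletions (middle) as percent of hits, against hits per 100000 reads, and the cumulative percent of nucleotides against all changes as percent of hits (right), for the 20 pseudouridines and 569 other U nucleotides with at least 100 hits; axes of percent are linear below 0.1 and logarithmic above. The pseudouridines end at 2.74% of hits changed, while the curve of the other U nucleotides goes on to 71.5%.

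The 3 pseudouridines at or above 1% were U776, U2260 and U2264. U2264, in helix 69 and guided by SNR3, had 4 substitutions in 146 hits (2.74%), a larger share than at 86.3% of the other U nucleotides. U2260, in the same helix and guided by SNR191, had 2 in 157 hits (1.27%). U776, guided by SNR80, had 3 substitutions in 257 hits (1.17%). Each of these shares rests on at most 4 changed hits. Over the 30 sites there were 71 substitutions and 4 deletions, and U2191 alone accounted for 36 of the substitutions and all 4 deletions.

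At the 7 unchanged sites with at least 100 hits, coverage ranged from 107 to 356. They were U960 (214 hits), U990 (107), U1004 (299), U1110 (356), U2314 (129), U2735 (191) and U2923 (114). Their guides are SNR8, SNR49, SNR5, SNR82, SNR86, SNR189 and SNR10. U2923 lies in the A loop of the peptidyl transferase centre, which holds the end of the A site tRNA. Of the 10 pseudouridines under 100 hits, 8 were unchanged, and U986 and U1056 had 1 substitution each, in 75 and 12 hits. The 8 unchanged ones were U1052, U1124, U2258, U2340, U2349, U2351, U2416 and U2826, with 12 to 69 hits. Of these, U1124 and U2340 had 69 hits each, U2416 had 65 and U2826 had 46. SNR9 guides U2340 and SNR11 guides U2416. Of the sites between these groups, U966, guided by SNR43, had 1 substitution in 161 hits (0.621%) and U1042, guided by SNR33, had 1 in 137 (0.730%).

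The sites with the most hits give the finest resolution. U2191 was changed in 0.338% of 11830 hits, close to the median of the other U nucleotides. U2865 had 1 substitution in 1065 hits (0.0939%), which was below 0.764% at U2880 (7 in 916), 0.676% at U2944 (6 in 887) and 0.459% at U2975 (3 in 653). U2129 and U2133, both guided by SNR3, had 3 substitutions in 521 hits (0.576%) and 1 in 548 (0.182%). None of the 7 sites with over 500 hits reached 1%, beside 28.4% of the 229 other U nucleotides with at least 500 hits.

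The median share of hits with a deletion was 0 both at the 20 pseudouridines with at least 100 hits and at the 569 others. None of the 20 had a deletion in 1% of hits, beside 9% of all U nucleotides with at least 100 hits. A deletion of any number was deposited at 1 of the 20, U2191, with 4 in 11830 hits (0.0338%), beside 17.5% of all U nucleotides. Median coverage was 235.5 hits at the 20 and 352 at the others. Another U adjoins 12 of the 30 pseudouridines, and a deletion within such a run cannot be placed uniquely. Substitutions were closer to the background, with 3 of 20 pseudouridines at or above 1%, beside 17.5% of all U nucleotides. The median share of substituted hits was 0.382% at the pseudouridines and 0.342% at the others. The highest shares elsewhere were 42.6% for substitutions and 35.4% for deletions.

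The shares were also set against U nucleotides of the same stretches and of like coverage. Within 10 nucleotides of a pseudouridine lay 79 other U nucleotides with at least 100 hits. Of these, 28 (35.4%) were changed in at least 1% of hits, 14 (17.7%) had deletions at that level, and 20 (25.3%) had any deletion. Where U2191 was left out and the others were limited to its runner-up's 1065 hits, 0 of 19 pseudouridines had a deletion, beside 57 of 448 others (12.7%). Since U2191 alone of the pseudouridines had deletions, the 0 follows from leaving it out. Substitutions of any number were then found at 12 of 19 (63.2%) and at 277 of 448 (61.8%). These comparisons were added after the values had been seen. They rest on the same library, and no test of chance was made on them.

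The 4 pseudouridines of helix 69 span 9 nucleotides, in the stretch printed above for that helix. U2258 had 59 hits and no change, U2260 had 157 hits, and U2264 and U2266 had 146 each. U2266, guided by SNR84, had 1 substitution (0.685%). Higher shares were found at nucleotides around them. C2257, which directly precedes U2258, was substituted in 34 of 59 hits (57.6%), at a coverage below the minimum. U2269 had 32 deletions and 1 substitution in 146 hits (22.6%), and A2271 had 15 deletions in 118 hits (12.7%). The 4 pseudouridines carried 7 substitutions and no deletion in 508 summed hits.

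**Figure D3:**
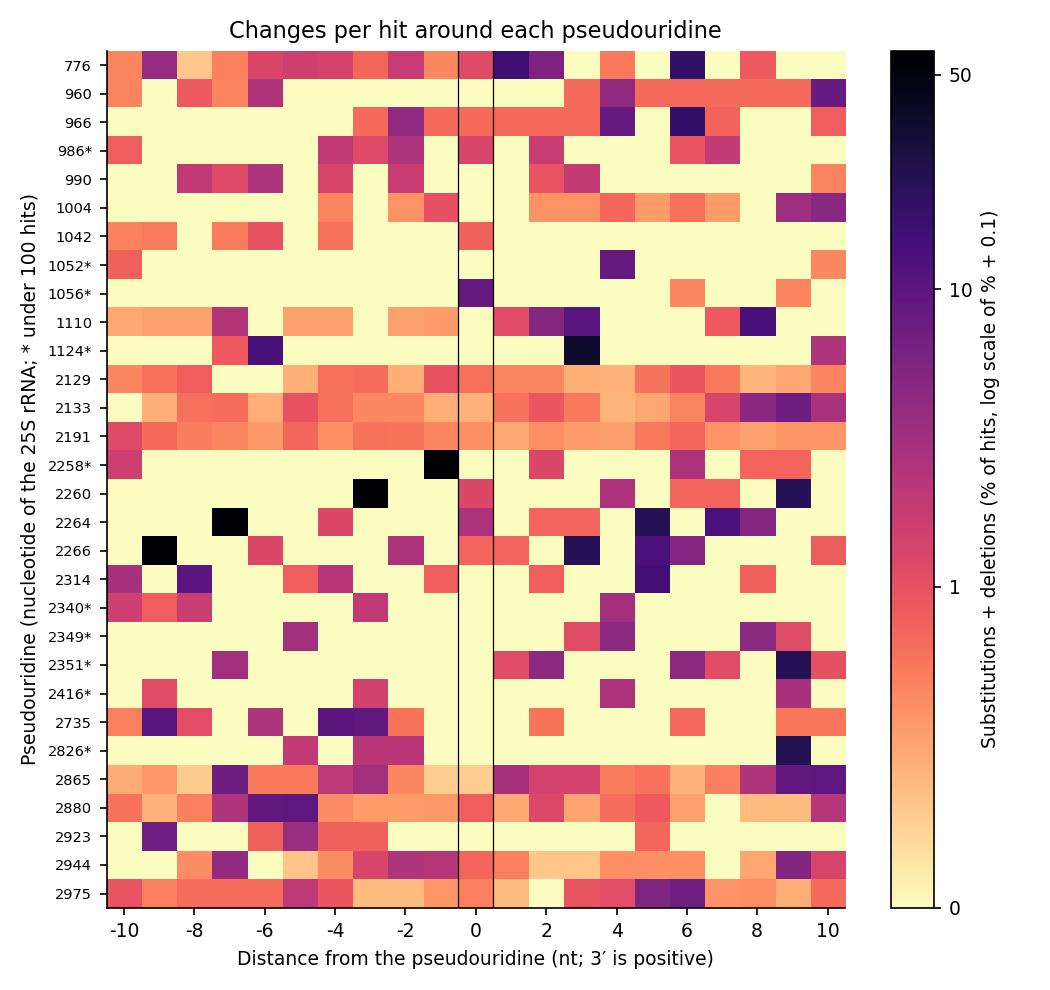
Substitutions plus deletions as percent of hits (colour, log scale of percent plus 0.1) at each of the 30 pseudouridines (rows; an asterisk marks fewer than 100 hits) and at the 10 nucleotides on either side. The central column reaches 2.74% with at least 100 hits, and 8.33% below that coverage, at U1056 (12 hits). Among neighbours within 5 nucleotides the highest shares are 22.6% with at least 100 hits, at U2269, and 57.6% below that coverage, at C2257 (59 hits). The highest share among the neighbours further out was not determined.

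Nucleotides changed in at least 5% of hits were also found near other pseudouridines. Of these, U1110, U1124, U2314 and U2735 were themselves unchanged, whereas U776, U966, U2880 and U2975 were changed in 0.459% to 1.17% of hits. U777, immediately 3′ of U776, was substituted in 34 of 222 hits (15.3%), and U778 had 12 deletions in 205 hits (5.85%). U776, U777 and U778 form a run of U, in which the aligner cannot place a deletion uniquely. The deletions placed at U778 therefore cannot be told from deletions of U776. A1112 and G1113, which follow U1110, were substituted in 8 of 160 hits (5%) and 16 of 151 hits (10.6%), whereas U1110 itself had none in 356. Hits fell from 355 to 160 after nucleotide 1111. U2319, 5 nucleotides 3′ of U2314, had 17 deletions in 116 hits (14.7%). U2731 and G2732, before U2735, each had 17 deletions in 186 hits, which with 2 substitutions gave 10.2% at U2731 and 9.14% at G2732. A970, after U966, was substituted in 13 of 161 hits (8.07%). In the peptidyl transferase centre region, U2875 was changed in 107 of 1093 hits (9.79%) and U2980, 5 nucleotides after U2975, in 36 of 638 (5.64%), of which 35 were deletions. G1127, 3 nucleotides after U1124, was substituted in 18 of 51 hits (35.3%), at a coverage below the minimum.

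Taken over all neighbours, such sites were about as frequent as elsewhere. Within 5 nucleotides of a pseudouridine, 12 of 166 nucleotides with at least 100 hits (7.23%) were changed in at least 5% of hits, beside 6.07% of all nucleotides of that coverage. Among the U nucleotides in these windows it was 7 of 46 (15.2%), beside 8.49% of all U nucleotides, and U777, U778, U2269, U2319, U2731, U2875 and U2980 made up the 7. U778 is counted through deletions whose place within its run with U776 is uncertain. At the nucleotide before the pseudouridine, 2 of 20 were changed in at least 1% of hits, and at the nucleotide after it 3 of 21 were. Before and after other U nucleotides the shares were 20.4% and 20.5%.

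In sequence, the base before a pseudouridine was G at 2 of the 30 (6.67%), beside 27.1% of the 829 other U nucleotides away from the ends. The preceding base was C at 11 (36.7%, beside 21.7%) and A at 10 (33.3%, beside 23.6%). The base after them was spread more evenly, with 8 A, 7 C, 7 G and 8 U. Another U was adjacent at 12 of the 30 (40%) and at 47.5% of the others. This matters for deletions, since the aligner cannot place a deletion uniquely within a run of the same base. Within 10 nucleotides of the previous site, 16 of the 30 lay in 6 clusters, of which the 4 sites of helix 69 were the largest.

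Other modified U nucleotides of the 25S rRNA were set beside the pseudouridines, although they are few. The 2 sites of 3-methyluridine, whose methyl group sits on the pairing face of the base, were substituted in 13 of 26 hits (50%) and 5 of 17 hits (29.4%). Neither reached 100 hits. The single site taken as 5-methyluridine, whose methyl group would point away from the pairing face, was unchanged in 231 hits. Whether it carries that modification was not tested. The 8 sites with a methyl group on the ribose were changed in 21 of 1423 summed hits (1.48%), all by substitution, with at most 2.67% at a site with at least 100 hits. Of these substitutions, 15 came from 1 site with 706 hits and 5 from another with 187. Summed over all 839 U nucleotides other than pseudouridines, these modified ones included, 1.66% of hits were changed. The 112 of domain IV held 6658 of the 13245 substitutions and 8650 of the 11539 deletions in this sum. Their summed share was 7.63%, beside 1.05% in domain II and 0.618% in domain V. Summed over the 30 pseudouridines, 0.389% of 19299 hits were changed, and 0.469% of 7469 without U2191. These kinds were identified from general knowledge of yeast rRNA and were not measured in this library.

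The 30 pseudouridines are guided by 22 snoRNAs, of which 16 have values in the deposited snoRNA table. In hits per 1000000 reads, they had a median of 114 and a range from 1 to 409. The other 51 RNAs of the table had a median of 307. SNR37, the guide of U2944, was highest with 409, followed by SNR189 with 363 and SNR32 with 219. SNR33 and SNR191, which guide U1042 and the pair U2258 and U2260, had 1 each. SNR3, with targets at U2129, U2133 and U2264, had 70. SNR46, which guides U2865, had 10. SNR8, SNR34, SNR44, SNR49, SNR81 and SNR86 were not analysed here.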

How the data were processed

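The authors used Flexbar for trimming and filtering, Novoalign for alignment to the yeast genome (R64 per the labels), and made the pileup and the snoRNA hits with pyCRAC. The versions are not given in the sources used here. The deposited values are whole numbers per 100000 reads for the pileup and per 1000000 reads for the snoRNAs, and were treated as a score, not as counts, since the sources leave unclear whether they were rescaled or whether counting stopped at these numbers. The depth is therefore unknown, and no counting interval was given. The authors describe their plotted 25S reads as unique sequence reads. Whether PCR copies of a molecule add to the deposited hits was not tested. RefSeq lists 2 copies of the 25S gene, whose reads are not told apart.

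Changes are substitutions plus deletions as percent of hits, at nucleotides with at least 100 hits. Every listed site was accounted for, and full values were given for those changed in at least 1% of hits, the unchanged, the 3 most and the least covered, and the clusters. The sites and measures were chosen with earlier results of these data known. Guides were assigned from general knowledge, and all 22 symbols matched RefSeq. The functions were tested on 20 simulated pileups in each of 3 settings. Rates were uniform over the listed nucleotides and over the rest, so the uneven rates of the data were not simulated. The tolerance for substitutions was wider than the low rate simulated, so this was a coarse check. RNA class totals were not used. Scripts ran under Python 3.11.15 with pandas 2.3.3, numpy 2.4.6 and, for figures, matplotlib 3.10.9.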

Additional observations from a re-analysis of the deposited data

How the results depend on the processing

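With 1 library of unknown depth, a difference was taken as unchanged only where its first 3 significant digits were, and a number of sites where it stayed within 1.5 times. No paired analysis was possible because only 1 library was analysed, and no replicate could be left out. A higher minimum leaves fewer sites. Otherwise the cause was not tested. The median share of changed hits at the pseudouridines minus that of the other U nucleotides, -0.00609 percentage points, was -0.165 with a minimum of 50 hits, -0.0210 with 500, -0.0323 against U nucleotides within 50 nucleotides and -0.0843 within 10. It reversed to 0.0555 without the nucleotides within 75 of the 2 highest peaks, 0.244 without U next to U, and 0.0546 at no more hits than the second most covered site. Pooled over nucleotides it was -1.27. For substitutions, 0.0395 became 0.0485 with a minimum of 500 hits, 0.0412 without other modified U nucleotides, 0.0429 within 10 nucleotides, 0.135 without the peaks, 0.283 without U next to U and 0.149 at like coverage, and reversed to -0.100 with a minimum of 50, -0.00424 within 50 nucleotides and -0.522 when pooled. The difference in medians therefore has no settled sign. For deletions both medians were 0 throughout, and the pooled difference was -0.752. Pooled values depended strongly on which sites were included. Pooled deletions of other U nucleotides were 0.376% of hits within 10 nucleotides of a pseudouridine and 3.45% within 50. At any coverage, the 112 other U nucleotides of domain IV held 8650 of the 11539 deletions at all 839. U2191 alone held 11830 of the 19299 hits of the 30 pseudouridines. Of the pseudouridines, 3 reached 1%, 0 of 7 did with a minimum of 500 hits, 9 of 20 reached 0.5% and 1 reached 2%. The share among other U nucleotides was above that of the pseudouridines at each minimum, comparison and threshold except at 0.5%, where it was 42.4% against 9 of 20. The median hits of the pseudouridines over those of the others, 0.811, was 0.362 for means, 0.895 without the peaks and 0.664 within 50 nucleotides. The ratio to the flanks, 1.01, moved to 1.00 with 5 nucleotides on either side. The comparisons within 10 nucleotides and at like coverage were added after seeing the data.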
